A study of Mus musculus with 13 samples.

Results

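The genes encoding CIS and SOCS1 to SOCS7 were followed in RNA-seq of mouse Th17 cells, the CD4 helper T cells that make IL-17A and IL-17F. The 8 genes, Cish and Socs1 to Socs7, were taken by symbol from 56941 gene rows, and all 8 passed the filter on low counts, which left 14681 genes. The libraries labelled KO came from mice labelled Chaf1bfl/fl;Il17fCre+, with floxed Chaf1b and a Cre recombinase driven by Il17f, and the WT libraries from mice labelled Chaf1bWT. The label of the WT mice does not say whether they carry the Cre. In both groups naive splenic CD4+ T cells were activated and held for 72 hours under Th17-polarizing conditions. Each genotype had 3 libraries, called biological replicates in the labels, which do not say that each came from its own animal, so a p-value here reflects only how far these libraries spread. Cre under Il17f acts only in cells that have switched Il17f on, and no age is given for the mice.

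These proteins are the classical brake on JAK-STAT signalling. A cytokine receptor activates Janus kinases, which phosphorylate STAT factors, and the STATs switch on CIS and several SOCS genes. Each protein carries an SH2 domain, which binds phosphorylated tyrosine, and a C-terminal SOCS box, which recruits elongins and a cullin ubiquitin ligase. In helper T cells SOCS3 limits the STAT3 signal of IL-6 and IL-23 that drives Th17 differentiation, SOCS1 limits the signal of interferon gamma, and CIS and SOCS2 are products of STAT5 signalling downstream of IL-2.

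Promoter windows were held for 4 of the 8 genes in the RefSeq table (GRCm38.p6), from 250 bases before to 50 after an annotated start. The stretches below show the letters through which STAT and interferon regulatory factors are known to bind, because the comparison concerns genes that these factors induce. Capitals mark TTCNNNGAA in Cish and Socs3. In Socs1 they mark a run of GAAA repeats, neighbours lying 2 bases apart, which holds 2 overlapping matches of GAAA, 2 bases and GAAA. Each is written 5′ to 3′ on the gene's strand.
Cish, chr9:107296654-107296683, plus strand: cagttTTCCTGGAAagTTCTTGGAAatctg
Socs3, chr11:117969501-117969530, minus strand: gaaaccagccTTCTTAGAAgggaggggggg
Socs1, chr16:10785597-10785626, minus strand: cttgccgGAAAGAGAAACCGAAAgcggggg
The Cish window held 2 copies of TTCNNNGAA, beginning at offsets 0 and 11 from the annotated start, and the Socs3 window held 1, at offset -154. Of all 32851 windows, 8.30% held this motif at least once and 0.457% at least 2 times. In the Socs1 window the 2 matches of GAAA, 2 bases and GAAA began at offsets -83 and -77. Of all windows, 3.44% held at least 1 match of that motif and 0.225% at least 2. Both strands were read. The longer spacing, TTC and GAA with 4 bases between them, found in 6.95% of windows, was in none of the 4, and the Socs4 window held none of the 3 motifs. The interferon-type motif was added after the Socs1 window had been read. A match is a description of the letters only.

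Total counts ran from 35708879 to 38395131 in the libraries labelled KO and from 38099488 to 45232055 in WT. Levels are given as CPM, a gene's count scaled to a common library size (TMM). The count table has no gene lengths, so levels are compared between libraries and not between genes. The floxed gene, Chaf1b, stood at 14.9 ± 1.38 CPM in the libraries labelled KO, against 12 ± 0.990 CPM in WT (SD, n = 3; adjusted p = 0.130, edgeR), and with WT replicate 1 left out it passed as higher, by 0.38 on the log2 scale (adjusted p = 0.0138). Its level was thus no lower than in WT. All exons are counted and the deleted part is not given, so this value does not check the genotype. WT replicate 1 stood apart, with a mean correlation of 0.9891 with its own group across 9661 genes, against 0.9971 to 0.9972 for the libraries labelled KO and 0.9939 and 0.9915 for WT replicates 2 and 3. Results are therefore also given without it.

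None of the 8 genes passed an adjusted p of 0.05 between the libraries labelled KO and WT (edgeR quasi-likelihood test with Benjamini-Hochberg adjustment over all 14681 genes), where 6.39% of all tested genes passed, 3.92% as higher and 2.47% as lower. At an unadjusted p under 0.05 there was 1 gene, Socs7, against 21.1% of all genes. DESeq2 also called 0, beside 8.19% of the genes it gave an adjusted p, and limma-voom 0, beside 5.89% of all genes. Quality weights per library in limma-voom gave 2 calls, where that fit called 19.5% of all genes. Fitted log2 fold changes were above 0 for 3 genes and below 0 for 5, from -0.12 to 0.24, with a median of -0.05 beside -0.0064 over all tested genes. The median absolute log2 fold change was 0.0726 over the 8 genes and 0.135 over all genes.

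**Figure D1:**
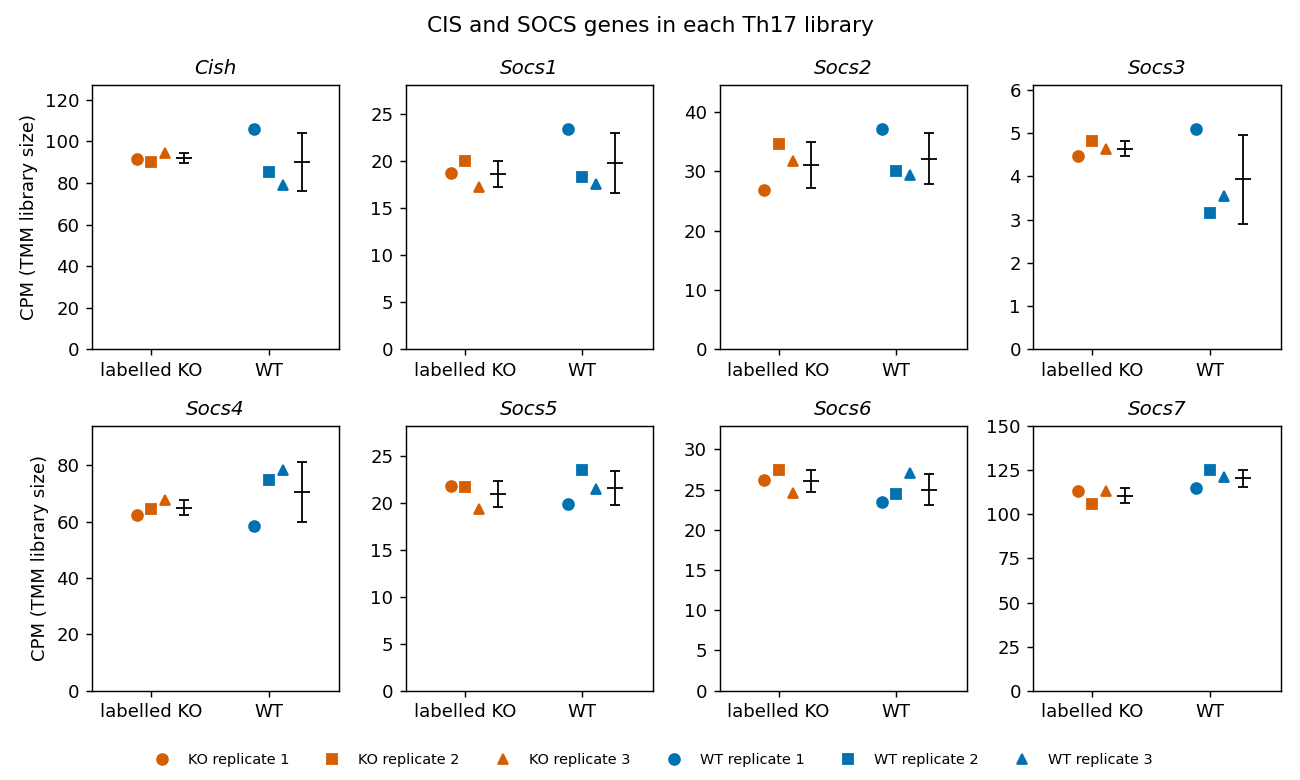
CPM (y axis, starting at 0) of the 8 genes in the 3 libraries labelled KO (orange) and the 3 WT libraries (blue), with marker shapes for replicate numbers and black bars for the mean ± SD. WT replicate 1 (blue circle) is the highest of the 6 libraries for Cish, Socs1, Socs2 and Socs3 and lies below the other WT libraries for Socs4 to Socs7.

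Cish (ENSMUSG00000032578.8) encodes CIS, which is induced by STAT5 and restrains IL-2 and T cell receptor signalling. It was at 91.7, 89.9 and 94.5 CPM in the libraries labelled KO, against 106, 85.3 and 79.2 CPM in WT. The KO values lay inside the WT range, below WT replicate 1 and above the other WT libraries. The means were 92.0 ± 2.31 CPM in the libraries labelled KO and 90.2 ± 14.1 CPM in WT (SD, n = 3 each). The fitted log2 fold change of 0.03 ± 0.09 (SE) had a 95% interval of -0.18 to 0.24 (adjusted p = 0.899, edgeR). On the linear scale the interval ran from 0.884-fold to 1.18-fold. Socs2 (ENSMUSG00000020027.19), another gene induced by STAT5, is best known for curbing growth hormone signalling. It was at 26.8, 34.5 and 31.7 CPM in the libraries labelled KO, against 37.1, 30 and 29.3 CPM in WT, with overlapping groups and again WT replicate 1 on top. Its log2 fold change was -0.05 ± 0.11 (95% interval -0.30 to 0.20, adjusted p = 0.849, edgeR). The RefSeq table lists Gm33230 across part of its span, and without strand in the counting their reads cannot be told apart.

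Socs1 (ENSMUSG00000038037.6) and Socs3 (ENSMUSG00000053113.4) encode the family members with a kinase inhibitory region, which blocks Janus kinases directly. Socs1 was at 18.7, 20 and 17.2 CPM in the libraries labelled KO, against 23.4, 18.3 and 17.6 CPM in WT. The groups overlapped and WT replicate 1 was the highest library. The log2 fold change was -0.09 ± 0.12, with a 95% interval from -0.34 to 0.17 (adjusted p = 0.737, edgeR). Socs3 rested on the fewest reads of the family, with 157, 184 and 170 counts in the libraries labelled KO, against 209, 121 and 161 counts in WT. This gave 4.47, 4.82 and 4.62 CPM in the libraries labelled KO, against 5.09, 3.15 and 3.54 CPM in WT. The KO values lay close together, again below WT replicate 1 and above the other WT libraries. Its log2 fold change of 0.24 ± 0.19 had the widest interval of the 8 genes, from -0.18 to 0.66 (adjusted p = 0.534, edgeR), which reaches 1.58-fold on the linear scale.

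Socs4 (ENSMUSG00000048379.10) and Socs5 (ENSMUSG00000037104.10) encode long family members linked to epidermal growth factor receptor turnover. Socs4 was at 62.4, 64.6 and 67.7 CPM in the libraries labelled KO, against 58.4, 74.8 and 78.3 CPM in WT. The KO values lay above WT replicate 1 and below the other WT libraries, the opposite order to Cish and Socs3. The log2 fold change was -0.12 ± 0.10 (95% interval -0.34 to 0.10, adjusted p = 0.544, edgeR). Socs5, whose protein has also been tied to the IL-4 receptor, was at 21.8, 21.7 and 19.4 CPM in the libraries labelled KO, against 19.9, 23.5 and 21.5 CPM in WT, and the groups overlapped. Its log2 fold change was -0.04 ± 0.09 (95% interval -0.25 to 0.16, adjusted p = 0.838, edgeR). The RefSeq table lists Gm30510 across part of the Socs5 span.

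Socs6 (ENSMUSG00000056153.16), whose protein binds the kinase LCK and the receptor KIT, was at 26.2, 27.4 and 24.6 CPM in the libraries labelled KO, against 23.5, 24.4 and 27.1 CPM in WT. The groups overlapped, and the log2 fold change was 0.06 ± 0.08 (95% interval -0.13 to 0.25, adjusted p = 0.748, edgeR). Socs7 (ENSMUSG00000038485.7), which encodes a binder of the adaptor NCK and of insulin receptor substrates, was at 113, 106 and 113 CPM in the libraries labelled KO, against 115, 125 and 121 CPM in WT. It was the 1 gene of the family whose groups did not overlap, and it was lower in the libraries labelled KO, where 26.8% of all tested genes were apart and 12.4% were apart and lower. The means were 111 ± 3.69 CPM in the libraries labelled KO and 120 ± 4.95 CPM in WT (SD, n = 3 each). Its log2 fold change of -0.12 ± 0.05 (95% interval -0.24 to 0.00) had a p of 0.0443 before adjustment and 0.220 after it (edgeR).

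The WT libraries were the more spread group for all 8 genes (SD of log2 CPM), as they were for 65.7% of all tested genes. The SD ratio of WT to KO was 6.59 for Socs3, 6.08 for Cish, 3.88 for Socs4 and 2.04 for Socs1, and between 1.02 and 1.32 for the other 4 genes. With 3 WT libraries, 2 lie at an edge of the WT range for any gene. WT replicate 1 did so for every gene of the family, and no share over all genes was taken for that. It was the highest of all 6 libraries for 4 genes, Cish, Socs1, Socs2 and Socs3, where it was highest for 24% of all tested genes. It was below both other WT libraries for the remaining 4, and the lowest of the 6 libraries for Socs4 and Socs6, where it was lowest for 23.4% of all genes. Relative to the mean of WT replicates 2 and 3, log2 CPM in WT replicate 1 was higher by 0.61 for Socs3, 0.38 for Socs1, 0.37 for Cish and 0.32 for Socs2. The same difference was -0.39 for Socs4, -0.18 for Socs5, -0.13 for Socs6 and -0.09 for Socs7. Il17a was also highest in WT replicate 1. It was at 8.60, 8.44 and 9.89 CPM in the libraries labelled KO, against 104, 52.4 and 43.1 CPM in WT. Whether Il17a has a part in these values was not tested.

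**Figure D2:**
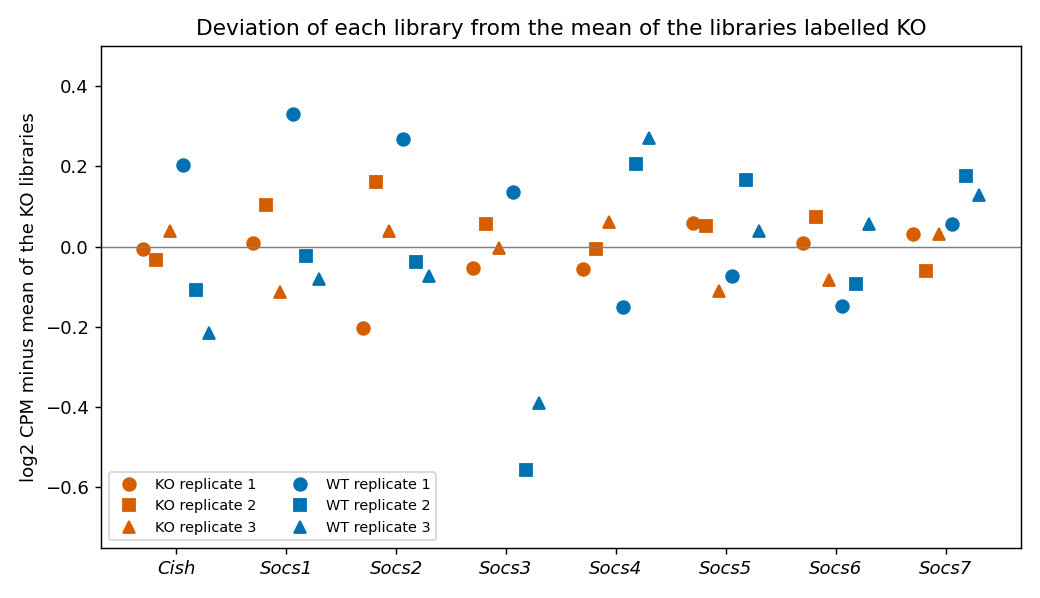
log2 CPM of each gene in each library minus the mean of the 3 libraries labelled KO (y axis), KO in orange and WT in blue, with shapes for replicate numbers. WT replicate 1 lies above WT replicates 2 and 3 for Cish and Socs1 to Socs3 and below them for Socs4 to Socs7.

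Without WT replicate 1, 3 of the 8 genes passed, where 19.7% of 15039 tested genes did, 9.12% as lower and 10.6% as higher. Socs4 fell, with a log2 fold change of -0.24 ± 0.05 (95% interval -0.35 to -0.13, adjusted p = 0.00164), and Socs7 fell by 0.15 (SE 0.05, adjusted p = 0.0181, edgeR). Cish rose by 0.16 ± 0.05 on the log2 scale (95% interval 0.06 to 0.27, adjusted p = 0.0203, edgeR). Socs3 had the largest fitted value, 0.47 ± 0.18, with an interval from 0.09 to 0.85, and did not pass (adjusted p = 0.0731, edgeR). Socs1, Socs2, Socs5 and Socs6 had fitted values of 0.05, 0.07, -0.10 and 0.02 and adjusted p-values from 0.487 to 0.926 in the same fit. These calls rest on 2 WT libraries and on a choice of library made with its values known. Leaving out any 1 of the other 5 libraries gave 0 calls among the 8 genes. Those fits called only 1.94% to 6.77% of the genes tested.

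**Figure D3:**
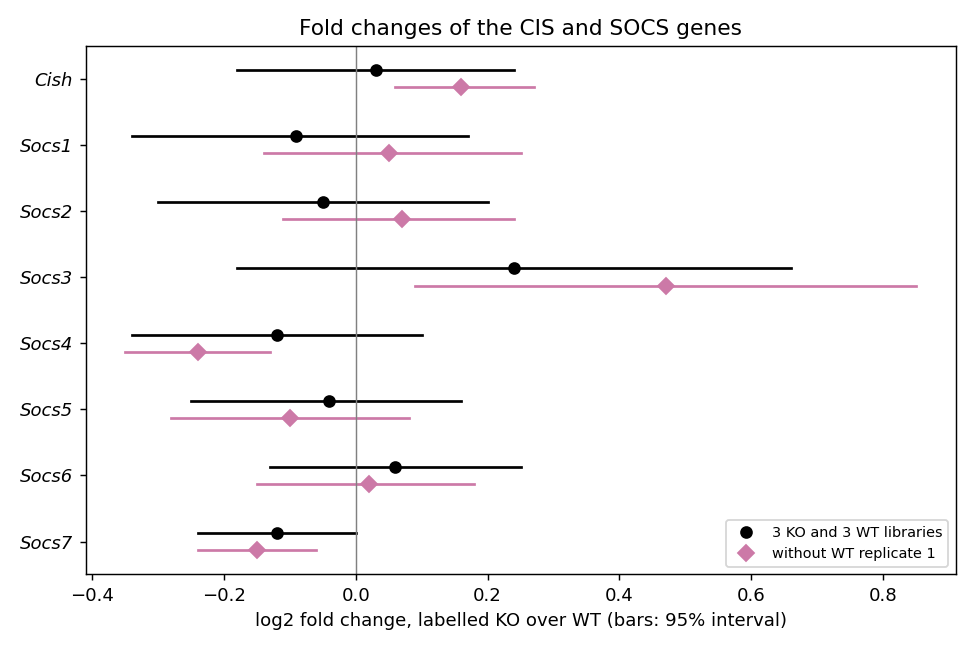
log2 fold change, labelled KO over WT (x axis), of each gene with its 95% interval from edgeR, with all 6 libraries (black circles) and without WT replicate 1 (pink diamonds). With all libraries no gene passes an adjusted p of 0.05, and without WT replicate 1 Socs4, Socs7 and Cish do.

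Differences between family members within a library cancel whatever scales a whole library. Socs1 exceeded Socs3 by 2.06, 2.05 and 1.89 on the log2 CPM scale in the libraries labelled KO, against 2.20, 2.53 and 2.31 in WT, so the groups did not overlap. The mean difference, KO minus WT, was -0.35, with a two-sided exact permutation p of 0.1, the smallest that 3 against 3 libraries allow, and 0.15 adjusted over the 3 differences examined. Cish minus Socs3 was 4.35, 4.22 and 4.35 in the libraries labelled KO, against 4.38, 4.75 and 4.48 in WT. The mean difference was -0.23 (exact permutation p = 0.1, adjusted p = 0.15). The groups again did not overlap, but their nearest values were 4.35 and 4.38, and counting error was not set beside that gap. Both ratios were thus lower in each library labelled KO than in each WT library, WT replicate 1 included, and neither could pass a threshold of 0.05. Both contain Socs3, the gene of the family with the fewest reads, so they are not separate observations. Of all tested single genes 26.8% were apart between the groups, and no such share was taken for gene pairs. Cish minus Socs2, the STAT5-linked genes, was 1.77, 1.38 and 1.58 in the libraries labelled KO, against 1.52, 1.51 and 1.44 in WT (mean difference 0.09, exact permutation p = 0.5). As no gene of the family passed, the genes most like Socs3 were listed. By Pearson correlation of log2 CPM over the 6 libraries, among 9007 other protein-coding genes with a mean of at least 5 CPM, these were Psmb8 (0.985), an immunoproteasome subunit, Stat4 (0.985), which carries the IL-12 signal, and Sertad3 (0.978). They are the highest of many values over few libraries and are a description.

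The kinases that the family restrains and the factors they activate were read next. Of 11 Janus kinase and STAT genes, 2 fell and none rose (edgeR), 18.2% of the list beside 6.39% of all genes, and the median log2 fold change was -0.01. Stat5a, which carries IL-2 signals to Cish, was at 778, 816 and 805 CPM in the libraries labelled KO, against 919, 944 and 914 CPM in WT. All KO values were lower, with a log2 fold change of -0.21 ± 0.04 (adjusted p = 0.00918, edgeR). Its close relative Stat5b was at 329, 332 and 326 CPM in the libraries labelled KO, against 396, 370 and 356 CPM in WT (-0.18 ± 0.05, adjusted p = 0.0479, edgeR). Both calls were lost without WT replicate 2 (adjusted p = 0.0662 for Stat5a and 0.150 for Stat5b) and without any 1 library labelled KO (0.0503 to 0.0819 for Stat5a and 0.161 to 0.180 for Stat5b). Jak2 (-0.19 ± 0.10), Stat4 (0.18 ± 0.10), Jak1 (0.07 ± 0.04), Jak3 (-0.01 ± 0.15), Tyk2 (0.07 ± 0.06), Stat2 (0.02 ± 0.12), Stat3 (0.06 ± 0.05) and Stat6 (-0.05 ± 0.04) did not pass, with adjusted p-values from 0.328 to 0.987 in edgeR's test. Without WT replicate 1, Jak2 passed as lower (-0.31, adjusted p = 1.35e-07) and Stat4 (0.30, adjusted p = 0.00652) and Tyk2 (0.13, adjusted p = 0.0283) as higher. With all 6 libraries none of 14 other JAK-STAT inhibitors passed, among them the phosphatases Ptpn2 and Ptpn6 and the PIAS genes. None of 9 genes for the ubiquitin ligase that the SOCS box recruits passed either, where 6.39% of all genes did.

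Several genes for cytokines that act upstream of the family passed. Of 17 tested genes for cytokines that signal through JAKs, 6 passed as higher and none as lower (35.3% of the list, beside 6.39% of all genes). The median log2 fold change was 0.45, and the values ran from -2.08 to 1.80. The largest change of the list was thus a fall, which did not pass. The risers were Il6 (1.80), Ifng (1.5), Il3 (1.45), Il13 (1.35), Il23a (1.03) and Csf2 (0.71). Il6 and Ifng encode known inducers of Socs3 and Socs1. Il6 was at 10.8, 12.1 and 10.9 CPM in the libraries labelled KO, against 2.85, 3.28 and 3.58 CPM in WT, and its adjusted p was 2.79e-05 in edgeR's test. Beside it, Socs3 and Socs1 had the fitted log2 fold changes of 0.24 and -0.09 given above. These are RNA levels, and whether the cytokines they encode signalled in these cells was not tested. Among 25 tested receptor genes Il12rb2 alone passed (1.05 ± 0.12, adjusted p = 6.98e-04, edgeR), 4% of the list beside 6.39% of all genes. Of 28 other genes with a SOCS box 16 were tested, and 2 rose, 12.5% of those tested beside 6.39% of all genes. They were the ankyrin repeat genes Asb2 (1.67 ± 0.12, adjusted p = 1.39e-05) and Asb1 (0.34 ± 0.07, adjusted p = 0.0128, edgeR). Asb1 no longer passed without KO replicate 1 (adjusted p = 0.107), KO replicate 3 (0.0871) or WT replicate 2 (0.0501). Of 13 tested SOCS substrates and partners, 1 passed, 7.69% of the list beside 6.39% of all genes. It was Zap70, a kinase of the T cell receptor, which fell by 0.22 on the log2 scale (adjusted p = 0.0158, edgeR). Its call was lost without WT replicate 2 (0.103) or any 1 library labelled KO (0.0684 to 0.108).

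**Figure D4:**
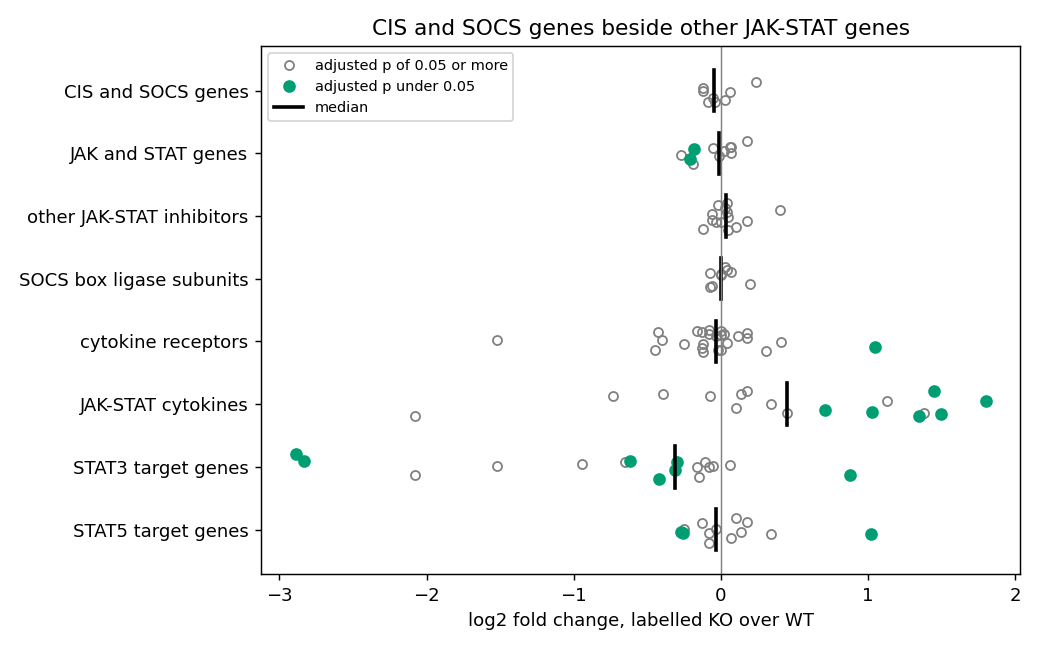
log2 fold change, labelled KO over WT (x axis), of the tested genes of 8 lists (rows), filled where the adjusted p of edgeR's test was under 0.05, with a black bar at each median. The 8 CIS and SOCS genes lie between -0.12 and 0.24, whereas the cytokine genes have a median of 0.45 and the STAT3 target genes one of -0.31.

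Known target genes of the STATs that also drive the family were read in the same way. Of 17 tested STAT3 targets 6 fell and 1 rose, 41.2% of the list beside 6.39% of all genes (2.47% lower and 3.92% higher), with a median log2 fold change of -0.31, beside 0.24 for Socs3. Il17a (-2.89) and Il17f (-2.83), the genes of the defining Th17 cytokines, were among those that fell, and Fos (0.88), an immediate early gene, rose. The mice labelled KO carry a Cre driven by Il17f, and whether that allele itself alters Il17f counts was not tested. Of 13 tested STAT5 targets Lta rose (1.02) while Ccnd2 (-0.26) and Myc (-0.27) fell, 23.1% of the list beside the same 6.39% (median -0.03), beside 0.03 for Cish and -0.05 for Socs2. Of 6 tested STAT6 targets Il13 alone passed, 16.7% of the list beside 6.39%. The calls of Fos, Ccnd2, Myc and Il17a were each lost in at least 1 fit without a library, with adjusted p-values up to 0.160, 0.0763, 0.210 and 0.0712, and that of Il17f without KO replicate 2 (0.0522). No difference between a list and the CIS and SOCS genes was tested.

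Bulk RNA cannot tell fewer cells of a type from less RNA per cell. The summed Th17 and CD4 markers lay between 385 and 404 CPM of the library total in the libraries labelled KO and between 521 and 723 CPM in WT, with all 8 markers counted. Of these 8, 4 passed, Il17a and Il17f among them. The largest part of the sum was Cd4, at 217, 235 and 224 CPM in the libraries labelled KO. In WT it was at 342, 269 and 259 CPM, and it did not pass (adjusted p = 0.0504, edgeR). Cd3e did not pass either (log2 fold change -0.07, adjusted p = 0.64, edgeR). Markers of gamma delta T cells lay between 95.4 and 99.5 CPM in the libraries labelled KO and between 51.8 and 63.4 CPM in WT. Those of NK and innate lymphoid cells lay between 409 and 495 CPM in the libraries labelled KO and between 118 and 311 CPM in WT, with the defining genes Ncr1, Klrb1c and Klra8 at 0 counts everywhere (3 of 7). Nearly all of that sum was 1 gene, Xcl1, which encodes a chemokine that activated T cells also make, at 489, 401 and 435 CPM in the libraries labelled KO, against 108, 262 and 301 CPM in WT, and it did not pass (adjusted p = 0.275, edgeR). Markers of B cells (95.3 to 103 CPM labelled KO, 69.4 to 82.2 CPM WT), myeloid cells (6.16 to 7.84 labelled KO, 2.48 to 2.86 WT), dendritic cells (181 to 184 labelled KO, 129 to 136 WT) and erythroid cells (56.3 to 61.1 labelled KO, 42.2 to 46.2 WT) were also apart, with S100a8, S100a9 and Siglech at 0 counts everywhere. Most of the B cell sum was Ighm, which rose (85 CPM labelled KO, 54.3 CPM WT, adjusted p = 0.00213, edgeR), whereas Ebf1 of the same list fell (-0.66, adjusted p = 0.01), and Pax5 had 0 counts in each library labelled KO, against 16, 8 and 2 counts in WT. Most of the myeloid, dendritic and erythroid sums likewise lay in 1 gene each, Fcer1g, Cd74 and Car2, which all rose (adjusted p = 4.49e-04, 9.43e-05 and 0.00206, edgeR). CD8 markers overlapped (12.3 to 16.3 CPM labelled KO, 14.2 to 16.1 CPM WT). Each of the 7 lists without overlap had an exact permutation p of 0.1, the smallest possible, and 0.114 adjusted over the 8 lists. Their part in the values of the CIS and SOCS genes was not tested.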

How the data were processed

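RNA was read in 6 of 13 samples; the other 7, which hold chromatin assays, were not analysed here. The deposited values are raw counts per gene, made by the authors with featureCounts 2.0.1 and GENCODE vM33, exons summed by gene, per the file headers. Their paths name HISAT2 with no version, and for the genome build the headers say nothing further. The deposited column of WT replicate 2 was entered as other in the record of units, and holds raw counts like the rest. The headers print no strand or paired-end option. Of counts from 1 to 20, 65.6% to 67.7% were even, so counts overstate the fragments read. Symbols matched 51948 of 56941 IDs, and rows without one held at most 0.204% of counts.

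Libraries were compared with edgeR 4.0.16 in R 4.3.3 (default filter, TMM, robust quasi-likelihood F-test, Benjamini-Hochberg over 14681 genes, threshold 0.05). Errors of CPM are SD over 3 libraries. SEs of log2 fold changes are the absolute value over the square root of F. Within-library differences used log2 CPM with a prior count of 0.5. The code was tested on simulated data. Alternatives used DESeq2 1.42.0, limma 3.58.1, other factors and filters, a replicate block and each library left out. The family was named, and all lists were written, with earlier results of these data known. Genes named outside the family were list members past the threshold by at least 0.5 on the log2 scale (otherwise the 4 largest), the JAK and STAT genes and 3 genes like Socs3, apart from some that are not reported here; Ccnd2, Myc, Asb1, Ptpn2, Ptpn6, Xcl1, Ighm, Ebf1, Pax5, Fcer1g, Cd74, Car2 and those at 0 counts were named after their values were seen. Cd4 and Cd3e were also named after their values were seen. Lists were described by counts and medians, with no set test.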

Additional observations from a re-analysis of the deposited data

How the results depend on the processing

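Over all genes, 938 calls became 1568 with no filter on low counts, 2862 with limma-voom and quality weights, 671 with the replicate number as a block and 295 to 2961 with 1 library left out. For the 8 CIS and SOCS genes, 0 calls became 2 with quality weights (Socs4, -0.19, adjusted p = 0.0416; Socs7, -0.16, adjusted p = 0.0208) and 0 to 3 with 1 library left out. Fitted log2 fold changes without 1 library ran from -0.16 to 0.05 for Socs1, -0.14 to 0.07 for Socs2, 0.11 to 0.47 for Socs3, -0.24 to -0.04 for Socs4, -0.10 to 0.02 for Socs5, 0.02 to 0.12 for Socs6, -0.15 to -0.09 for Socs7 and -0.06 to 0.16 for Cish. Quality weights turned Socs1 to 0.01 and Socs2 to 0.03. With 1 library left out, Cish minus Socs3 ran from -0.31 to -0.12, Socs1 minus Socs3 from -0.42 to -0.25, Cish minus Socs2 from -0.01 to 0.19 and the CD8 marker difference from -0.96 to 1.06 CPM. Jak3 turned to 0.03 with limma-voom, 0.07 with quality weights and 0.02 with the replicate block, and ran from -0.16 to 0.19 without 1 library; Stat2 ran from -0.12 to 0.13. The cause of these changes was not tested.

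The replicate block gave 0 calls among the 8 genes, where it called 4.57% of all genes. Same-numbered libraries did not deviate together (correlations of -0.05, -0.08 and 0.10). These values show no pairing by number, but with 3 libraries per genotype they cannot exclude one. The block gave exact p-values of 0.25, 0.25 and 0.5 for Cish minus Socs3, Socs1 minus Socs3 and Cish minus Socs2. Stat5b (0.0898) and Zap70 (0.0514) lost their calls under it. The Stat5b call was also lost with upper-quartile factors (0.0561) and limma-voom (0.0545), that of Ifng with no filter (0.0618) that of Il17f with no filter (0.0578), that of Fos with upper-quartile factors (0.0531) and that of Myc with RLE factors (0.051), the stricter filter (0.0508) and limma-voom (0.0595). Over all alternatives for 28 named genes outside the family, those given above included, 334 kept direction and call, 42 lost the call, 9 gained one and 7 turned sign. Socs3 was left out by the stricter filter. Levels per length were not run, for want of gene lengths. Depth limits Socs3 most, at 121 to 209 counts a library.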
